A study of Drosophila melanogaster with 9 samples.

Results

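The genes described here are sas, Ptp10D, btsz and Moe, which encode proteins of the apical membrane of epithelial cells and of the cortex beneath it. They are 4 of the 11982 named genes on the array, read from 8 of the 18769 probe sets tested, a probe set being the group of array probes that reports 1 transcript or several transcripts of a gene: 1 for sas, 2 for Ptp10D, 4 for btsz and 1 for Moe. The genes were chosen with their levels in these same arrays known, sas and btsz being among those the study itself picked from its comparison of T10 with T1. The differences between rounds given below for these 4 genes are therefore a description, with no test.

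The arrays compare metastatic tumors at transplant rounds T1, T2 and T10, with 3 arrays each. All tumors came from clones in the adult female gut that were mutant for Apc and Apc2 and expressed UAS-RasV12, UAS-Snail and UAS-GFP under esg-Gal4, a driver of intestinal progenitor cells, so the transgenes depend on that driver throughout. Abdominal macrometastases from 3 flies, about 3 weeks old at dissection, were injected into the abdomen of young yw females, and pieces of each GFP-positive tumor were passed on to new hosts. The labels give a host temperature of 25 °C for all arrays, whereas the methods of the study name a higher one. There was no untreated tissue among the arrays, T1 being the first round in a host, and the labels name the 3 arrays of a round technical replicates, so the errors below cover the spread between arrays, part of which may be technical.

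Sas (Stranded at second) is a transmembrane protein with a large extracellular part that is sorted to the apical surface of fly epithelia, including epidermis and trachea. It binds Ptp10D, a receptor tyrosine phosphatase with fibronectin repeats, and in Drosophila epithelia Ptp10D is known to dampen signaling from the EGF receptor. Bitesize (btsz) is a synaptotagmin-like protein with C2 domains that binds membrane lipids and Moesin at the apical junctions and helps to hold E-Cadherin there. Moesin (Moe), the only ERM (ezrin, radixin, moesin) protein of the fly, links actin filaments to the plasma membrane when it is phosphorylated.

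One array stood apart from its round. Pearson's r of T2 replicate 3 across all probe sets was 0.964 to 0.984 against the T10 arrays, and 0.932 to 0.95 against T2 replicates 1 and 2. Differences from T2 are therefore given with and without it. The markers of differentiated gut cells were dim, with 5 of 6 enterocyte genes and 4 of 4 enteroendocrine genes below a log2 value of 6.61, the median of all probe set means, while all 4 intestinal progenitor genes lay above it.

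Transcripts of sas had the widest range of the 4 genes. On the log2 scale of the deposited values, the 3 arrays of a round read 7.01, 6.09 and 9.93 at T1, 6.09, 9.74 and 11.99 at T2, and 12.15, 11.82 and 11.99 at T10. The T10 arrays lay together above every T1 array, whereas T1 replicate 3 and T2 replicate 2 were intermediate and T2 replicate 3 lay inside the T10 range. The mean was 11.99 ± 0.165 at T10 and 7.68 ± 2.0 at T1 (SD, n = 3 each), a log2 difference of 4.31 (standard error 1.16) or 19.8-fold. At 50 of the 18769 probe sets, sas included, the difference was at least as high. T1 replicate 2 and T2 replicate 1, both at 6.09, lay below 6.61, the median of all probe set means. Its size depended on which T1 arrays were kept, since it came to 43.3-fold when T1 replicate 3 was left out and to 11.4-fold when T1 replicate 2 was.

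The spread of sas lay in the early rounds. Its highest and lowest T1 arrays were 3.84 log2 apart, and 0.133% of all probe sets had a T1 range at least as wide. At T2 the range was 5.9, matched or passed by 0.176% of probe sets, and at T10 it was 0.33, close to the median range of 0.31 over all probe sets. The T1 and T2 arrays thus lay far apart in sas and the T10 arrays close together, and how much of that spread is technical was not tested.

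Ptp10D, the receptor of Sas, was higher at T10 at both of its probe sets. The arrays of probe set 1634653_a_at read 9.78, 9.77 and 10.14 at T1, 9.85, 10.07 and 11.23 at T2, and 11.23, 11.38 and 11.03 at T10. Those of 1624660_at read 7.48, 7.24 and 7.53 at T1, 7.22, 7.25 and 8.27 at T2, and 8.77, 8.88 and 8.41 at T10. The T1 arrays and T2 replicates 1 and 2 were close to each other at both probe sets, and T2 replicate 3 was inside the T10 range at the first and just under it at the second. The log2 difference of T10 against T1 was 1.32 (standard error 0.158) and 1.27 (standard error 0.168), or 2.49- and 2.41-fold. Unlike sas, Ptp10D varied little within T1, where its ranges of 0.37 and 0.29 bracketed the median range of 0.33.

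**Figure D1:**
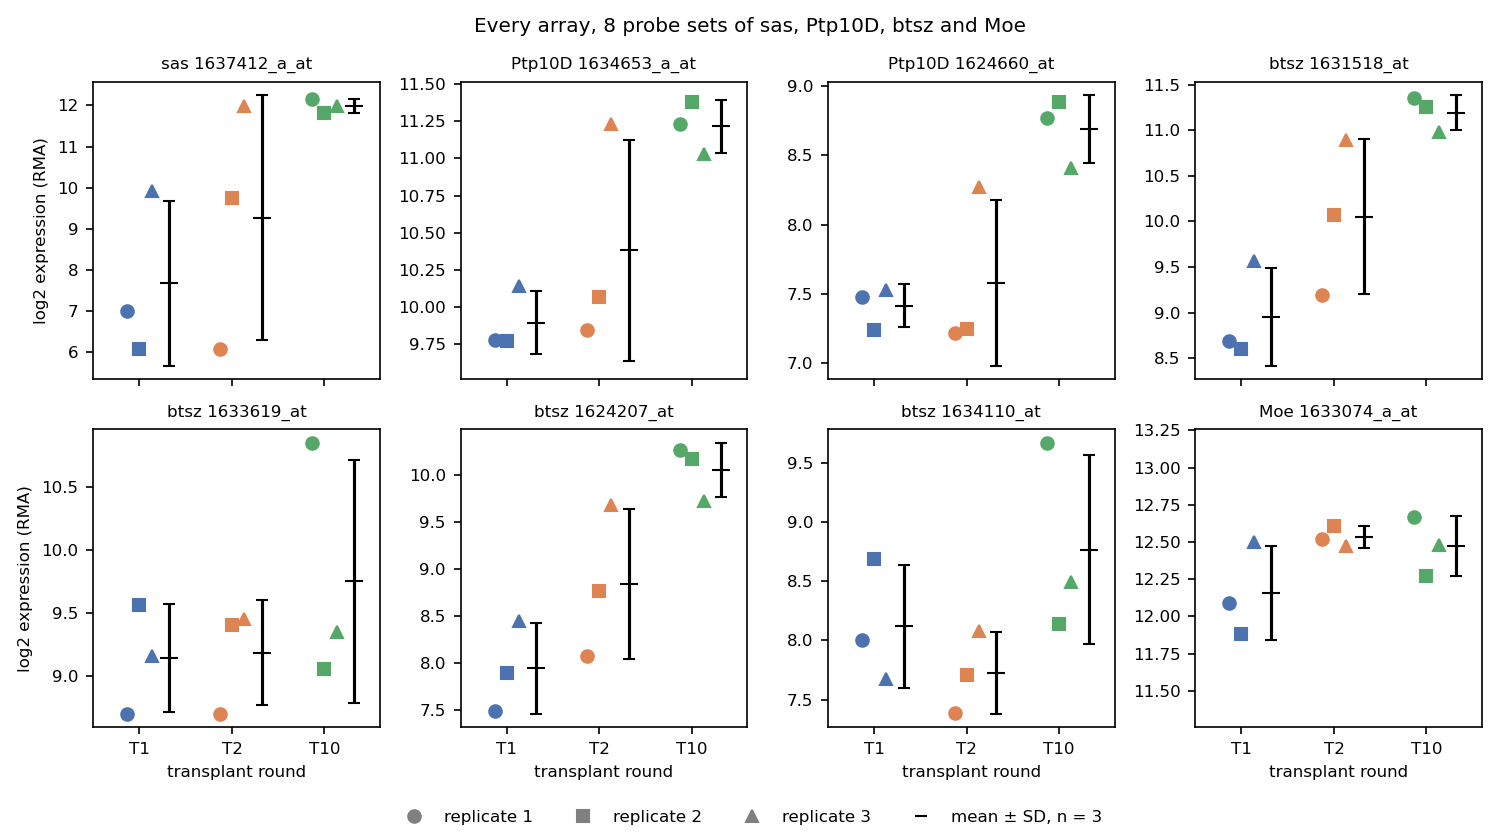
Log2 expression (vertical axis, RMA values as deposited, each panel on its own scale) of the 8 probe sets by transplant round, with 1 point for each array, the marker giving the replicate number, and the mean ± SD of 3 arrays beside it. The T10 arrays of sas, of both Ptp10D probe sets and of btsz 1631518_at and 1624207_at lie above all T1 arrays, and those of Moe and of the other btsz probe sets overlap T1.

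The 4 probe sets of btsz fell into 2 pairs that gave different pictures. In the first pair, 1631518_at read 8.69, 8.60 and 9.57 at T1, 9.19, 10.07 and 10.89 at T2, and 11.35, 11.25 and 10.98 at T10. Its partner 1624207_at read 7.49, 7.89 and 8.45 at T1, 8.08, 8.77 and 9.68 at T2, and 10.27, 10.18 and 9.73 at T10. Here the T10 arrays lay above all others, T2 replicate 3 came next to them, and T2 replicate 2 was above every T1 array. The log2 difference of T10 against T1 was 2.24 (standard error 0.329) and 2.12 (standard error 0.325), or 4.72- and 4.34-fold.

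In the second pair the T10 arrays did not stay together. Probe set 1633619_at read 8.70, 9.56 and 9.16 at T1, 8.70, 9.40 and 9.45 at T2, and 10.85, 9.05 and 9.35 at T10. Probe set 1634110_at read 8.00, 8.69 and 7.67 at T1, 7.39, 7.71 and 8.08 at T2, and 9.67, 8.14 and 8.49 at T10. T10 replicate 1 alone was the highest of the 9 arrays at both, and T10 replicates 2 and 3 lay within the T1 range. The differences of 1.53- and 1.57-fold against T1 were 1.04- and 1.14-fold without T10 replicate 1.

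The division of btsz also showed in how the arrays were ordered. Over the 9 arrays, Pearson's r was 0.87 to 0.99 within a pair (Spearman's coefficient 0.69 to 0.98) and 0.42 to 0.57 between the pairs (Spearman's coefficient 0.31 to 0.48). These coefficients describe 9 arrays that fall into early and T10-like sets, and the pairs were formed after their values were seen. Which transcripts of btsz each probe set matches was not analysed here, so the values cannot be assigned to isoforms.

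Moe was the only gene of the 4 with no probe set at which the T10 arrays lay above every T1 array. Its arrays read 12.09, 11.88 and 12.50 at T1, 12.52, 12.61 and 12.47 at T2, and 12.67, 12.27 and 12.48 at T10. T1 replicate 3 lay within the T10 range, and T1 replicates 1 and 2 were the lowest of the 9 arrays. The log2 difference of T10 against T1 was 0.32 (standard error 0.216), or 1.25-fold, and without T1 replicate 3 it was 1.40-fold with no overlap left. The signal of Moe was in the top part of the array scale, with a mean above 98.8% of probe sets, where differences can be compressed on arrays. Whether that applied to Moe was not tested.

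Counted over probe sets, the T10 arrays were above every T1 array at 5 of the 8, which is also the case at 12.9% of all probe sets (15.1% were below), and they overlapped T1 at the other 3. The difference was at least 1 log2 at 5 of the 8, and at 5.64% of all probe sets. The count was 6 of 8 without T1 replicate 2 or without T1 replicate 3, where 15.2% and 20.2% of all probe sets did so. Since the genes were picked for this contrast, the count is no evidence about them. The same arrays stood out from gene to gene: T1 replicate 3 was the highest T1 array at 6 of the 8 probe sets (33.2% of all probe sets), and T2 replicate 3 the highest T2 array at 7 (34%). T2 replicate 3 was above the other 5 arrays of T1 and T2 at 5 of the 8 (21%), and at 5 of the 8 the T10 arrays were above those 5 as well (7.86%).

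Against T2, the differences moved with the T2 array left out, since replicate 3 was the highest and replicate 1 the lowest T2 array at every probe set of sas, Ptp10D and btsz. With all arrays, T10 was above every T2 array at 4 of the 8 probe sets (11.9% of all probe sets, with 9.41% below), and without T2 replicate 3 at 6 of 8 (22.1%, with 19.6% below). The log2 difference of sas against T2 was 2.71 (standard error 1.72) with all arrays, 4.07 without T2 replicate 3 and 1.12 without T2 replicate 1. For Ptp10D it was 0.83 and 1.11 with all arrays, 1.25 and 1.45 without replicate 3, and 0.56 and 0.93 without replicate 1. The first btsz pair, 1631518_at and 1624207_at, had 1.14 and 1.22 with all arrays, 1.56 and 1.64 without replicate 3, and 0.71 and 0.83 without replicate 1. The other btsz probe sets had 0.57 (1633619_at, with overlap) and 1.04 (1634110_at, without overlap) with all arrays, 0.70 and 1.22 without replicate 3, and 0.33 and 0.87 without replicate 1. Moe differed by -0.06 (standard error 0.123), and by -0.09 without T2 replicate 3.

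Between T2 and T1 no probe set of the 4 genes was free of overlap, where T2 was above T1 at 2.57% of all probe sets and below it at 6.86%. The log2 differences were 1.60 for sas, 0.49 and 0.16 for Ptp10D, 1.10 and 0.90 for the first btsz pair, 0.04 and -0.39 for 1633619_at and 1634110_at of btsz, and 0.38 for Moe. Without T2 replicate 3 they were 0.24 for sas, 0.06 and -0.18 for Ptp10D, 0.68 and 0.48 for the first btsz pair, -0.09 and -0.57 for the second and 0.41 for Moe. The value of sas was 3.19 without T2 replicate 1 and 2.72 without T1 replicate 3, so that single arrays of either round set its size. Without T2 replicate 1, Ptp10D had 0.75 and 0.34 and the first btsz pair 1.53 and 1.28. With T2 replicate 3 left out instead, Moe was above every T1 array in both remaining T2 arrays, 1 of the 8 probe sets (7.1% of all, with 11.9% below). These comparisons share the T1, T2 and T10 arrays with those above and are not independent of them.

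**Figure D2:**
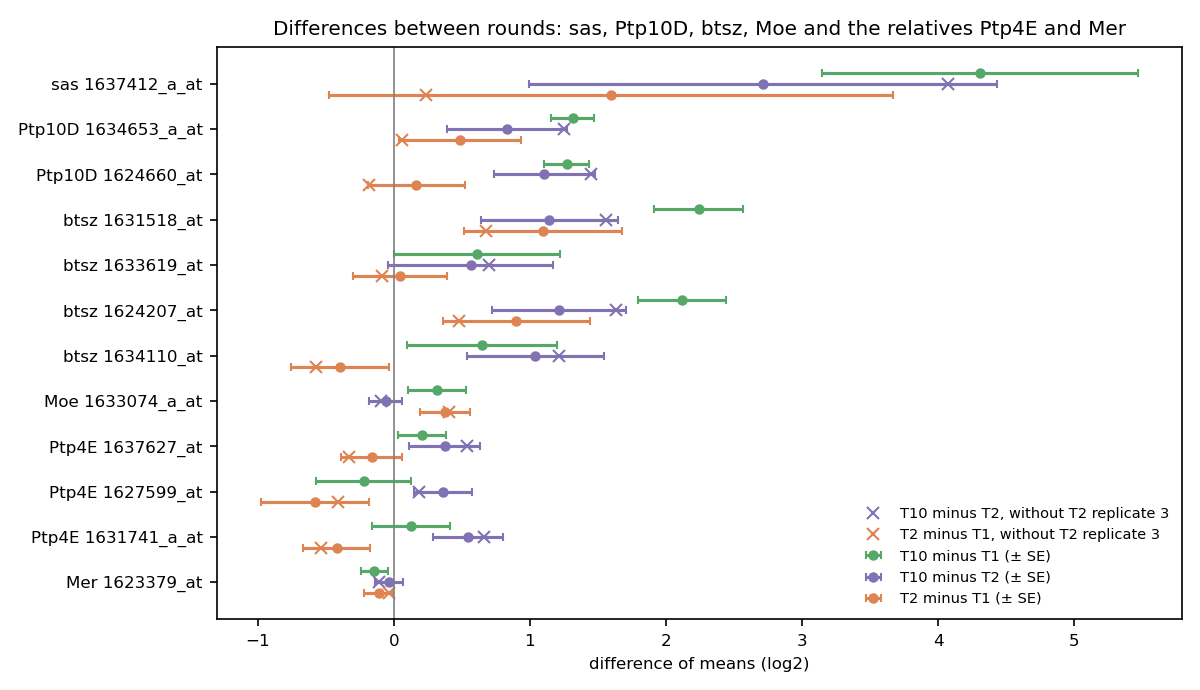
Differences of round means on the log2 scale (horizontal axis) for the 8 probe sets and, below them, those of the relatives Ptp4E and Mer, with bars for the standard error of 3 arrays against 3 and crosses for the difference without T2 replicate 3. For sas the T10 minus T2 difference is 2.71 with that array and 4.07 without it, and all differences of Mer lie near 0.

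The closest relatives of Ptp10D and Moe, Ptp4E and Mer, were read beside them. Ptp4E encodes the receptor phosphatase most like Ptp10D and acts with it in tracheal tubes, and its 3 probe sets had log2 differences of 0.21, -0.22 and 0.12 between T10 and T1 with overlapping arrays. Between T10 and T2 they had 0.37, 0.36 and 0.54, the last without overlap (11.9% of all probe sets higher), and between T2 and T1 -0.16, -0.58 and -0.42. Leaving out T2 replicate 3 gave 0.54, 0.19 and 0.66 against T2, the first and last without overlap (22.1% of all probe sets higher). Between T2 and T1 it gave -0.33, -0.41 and -0.54. Its highest-mean probe set, 1637627_at, read 11.64, 11.60 and 11.37 at T1, 11.00, 11.41 and 11.71 at T2, and 11.44, 11.95 and 11.85 at T10. Mer, which encodes the FERM domain tumor suppressor Merlin, read 10.27, 10.48 and 10.26 at T1, 10.28, 10.33 and 10.07 at T2, and 10.26, 10.26 and 10.06 at T10 (log2 difference of T10 against T1 -0.14, standard error 0.0979). Against T2, Mer differed by -0.03 with all arrays. Without T2 replicate 3 it differed by -0.11, with no overlap left (19.6% of all probe sets lower). Whether Ptp10D differs from Ptp4E, or Moe from Mer, in its change was not tested, since Ptp10D and Moe were chosen on these arrays.

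To see what surrounded the 4 genes, 7 lists of related genes were followed between T10 and T1: receptor phosphatases, regulators of Moesin, FERM domain proteins, synaptotagmin-like proteins and their Rab partners, the apical cytoskeleton, apical secretion and the EGF receptor pathway. Without the 4 genes they held 96 genes, of which 70 had a named probe set. In limma on all 9 arrays, with p-values adjusted by Benjamini-Hochberg over all probe sets, none of the 70 passed an adjusted p under 0.05, and 0% (higher) and 0.0107% (lower) of all probe sets did. At an unadjusted p under 0.05, 9 were higher and 14 lower (9.34% and 11.5% of all probe sets). In limma on the T10 and T1 arrays alone, 6 rose and 6 fell, where 2.98% of all probe sets rose and 2.99% fell, and a fit that left out T2 replicate 3 called 6 higher and 8 lower (3.66% and 3.96%). The median log2 difference of the 70 was -0.08, and that of all probe sets -0.01.

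For the same 70 genes, T10 against T2 gave no call by limma on the full set of 9 arrays, where 0% of probe sets passed in either direction, and 7 were higher and 8 lower at an unadjusted p under 0.05 (8.45% and 8.6% of all). When T2 replicate 3 was left out, 6 rose and 6 fell (3.15% and 4.32%). Between T2 and T1 none passed with or without that array (0% of all probe sets higher and 0.00533% lower), and 0 were higher and 4 lower at an unadjusted p under 0.05 (2.01% and 4.15%).

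Among the 9 genes of the list with Sas, Ptp10D and the other receptor phosphatases, 1 of the 7 others fell in limma on the T10 and T1 arrays alone, while none rose. This was IA-2, whose phosphatase-like product sits in the membrane of dense core vesicles. It read 5.96, 5.91 and 6.06 at T10, against 8.41, 7.10 and 7.44 at T1, a log2 difference of -1.67 (adjusted p = 0.0455 on the T10 and T1 arrays alone, 0.109 on all 9). Lar, a receptor phosphatase of axons and of the follicular epithelium, had a log2 difference of 0.51 and did not pass (adjusted p = 0.22 and 0.18 in the same fits).

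None of the regulators of Moesin passed in either fit. The 9 genes of that list with a probe set, Moe included, had a median log2 difference of -0.11. The gene sktl, which encodes a kinase that makes the lipid PIP2 to which ERM proteins bind, had a log2 difference of -0.44 (adjusted p = 0.0731 from limma on the arrays of both rounds and 0.259 on all 9). Without T2 replicate 3, sktl passed (adjusted p = 0.0424). Slik, the kinase known to phosphorylate Moesin in Drosophila, had a log2 difference of 0.01.

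Of the 11 FERM domain genes with a probe set, 2 rose and 1 fell in limma on the T10 and T1 arrays alone. The gene ex, which encodes the apical Hippo pathway protein Expanded, read 10.08, 10.43 and 9.64 at T10, against 7.98, 7.86 and 8.33 at T1, or 3.98-fold (adjusted p = 0.0119). Myo10A, an unconventional myosin with FERM domains in its tail, read 9.84, 9.84 and 9.51 at T10, against 5.22, 4.35 and 7.19 at T1, or 17.7-fold (adjusted p = 0.0304). Its T1 arrays spread like those of sas, with replicate 3 the highest and replicates 1 and 2 below the median of all probe set means. Fit2, one of the fly kindlins of integrin adhesion, fell by 0.92 on the log2 scale (adjusted p = 0.0469), and did not pass in the fit that left out T2 replicate 3 (0.0514). On all 9 arrays the adjusted p was 0.0843 for ex, 0.105 for Myo10A and 0.0927 for Fit2.

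Of the 9 synaptotagmin-like and Rab genes with a probe set other than btsz, 1 rose and none fell in that fit (2.98% and 2.99% of all probe sets). That fit used the T10 and T1 arrays alone. Rab27 is the GTPase that synaptotagmin-like proteins bind in mammals. It read 8.88, 9.22 and 9.16 at T10, against 7.32, 6.87 and 7.47 at T1, a log2 difference of 1.87 or 3.65-fold (adjusted p = 0.00757 from limma on the T10 and T1 arrays alone, 0.107 on all 9). T2 replicate 3 was at 8.77, just under the T10 arrays. Esyt2, which encodes an extended synaptotagmin of membrane contact sites, had a log2 difference of 2.22 with overlapping arrays and did not pass (adjusted p = 0.187 and 0.197). The other 7 genes lay below the median probe set mean.

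**Figure D3:**
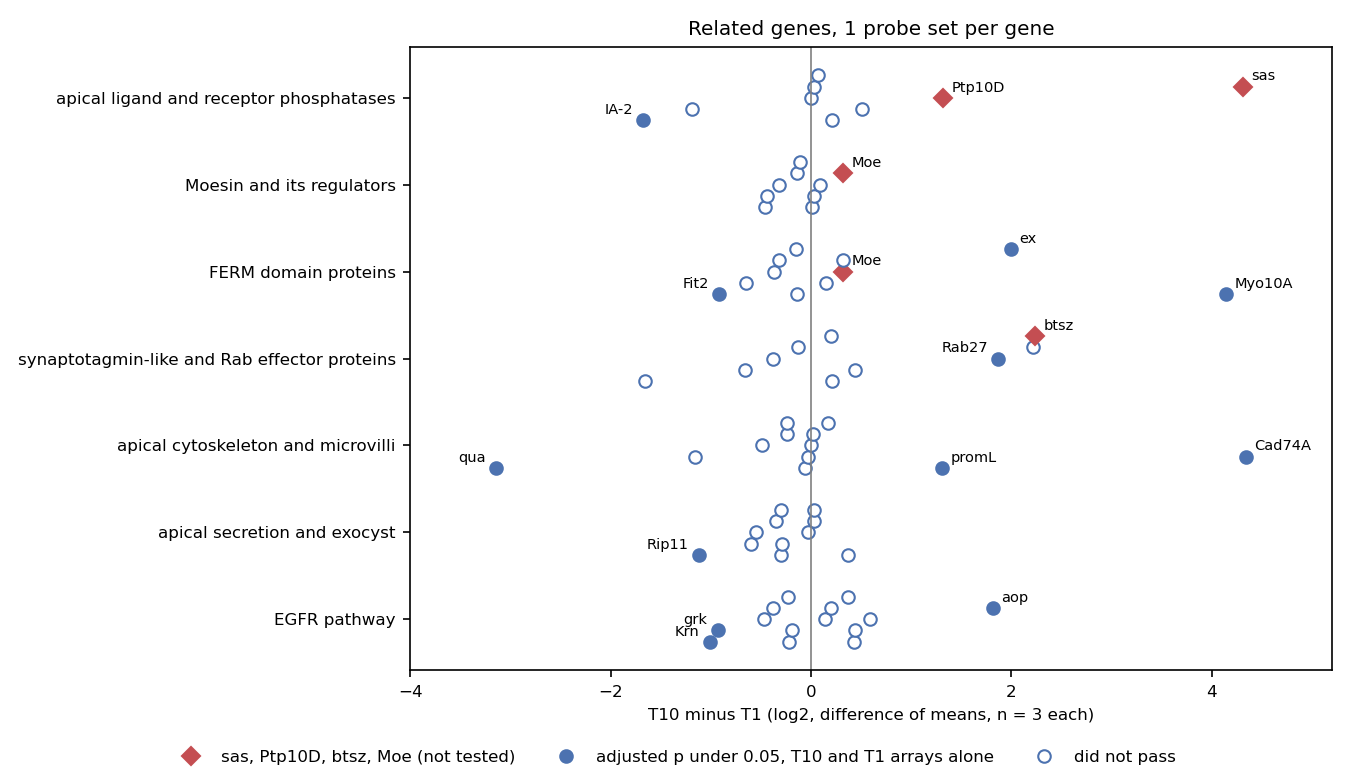
T10 minus T1 on the log2 scale (horizontal axis) for each gene with a probe set in the 7 related lists (rows), 1 probe set for each gene, with diamonds for the 4 described genes and filled circles for related genes whose adjusted p was under 0.05 when limma was run on T10 and T1 arrays. Of the filled circles, ex, Myo10A, Rab27, Cad74A, promL and aop lie right of 0 and IA-2, Fit2, qua, Rip11, Krn and grk left of it, and some open circles, such as Esyt2 at 2.22, lie as far out.

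The apical cytoskeleton list, with 12 genes measured, had 2 that rose and 1 that fell on the T10 and T1 arrays alone. Cad74A, a cadherin that the study also chose on these samples, rose 20.2-fold (adjusted p = 0.0194 from limma, 0.122 on all 9 arrays). promL, a relative of the prominins of membrane protrusions, read 11.82, 11.75 and 11.28 at T10, against 10, 10.15 and 10.77 at T1, or 2.48-fold (adjusted p = 0.0415, and 0.0963 on all 9). The gene qua, whose villin-like product Quail bundles actin in the ovary, was lower, at 4.66, 4.45 and 4.56 at T10 against 7.38, 7.76 and 7.97 at T1, or 8.86-fold lower (adjusted p = 0.00205 from limma on these arrays, and 0.0736 on all 9). T2 replicate 3 was at 5.25 for qua and, like the T10 arrays, lay below the median of all probe set means.

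In the apical secretion list, 1 of 11 genes fell and none rose on the T10 and T1 arrays alone. Rip11, a Rab11 partner in apical delivery, read 10.38, 10.28 and 10.86 at T10, against 11.72, 11.34 and 11.83 at T1, or 2.18-fold lower (adjusted p = 0.0379 from limma, 0.0924 on all 9 arrays). The exocyst genes Exo70 and Sec15 had log2 differences of -0.60 and 0.03 and did not pass, although Exo70 did in limma when T2 replicate 3 was left out (adjusted p = 0.0325).

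For the EGF receptor pathway, on which Ptp10D acts, 1 of 14 genes rose and 2 fell on the T10 and T1 arrays alone. The gene aop, which encodes the ETS repressor Yan that the pathway inactivates, read 10.80, 10.75 and 10.28 at T10, against 8.83, 8.95 and 8.61 at T1, or 3.51-fold (adjusted p = 0.0072 from limma on these arrays, and 0.0974 on all 9). Krn and grk, both TGF-alpha-like ligands of the receptor, were 2.02- and 1.91-fold lower (adjusted p = 0.0284 and 0.0489 from limma on the same arrays, 0.0866 and 0.102 on all 9). Egfr itself read 10.28, 10.64 and 10.52 at T10, against 9.16, 10 and 10.99 at T1, with a log2 difference of 0.43 that did not pass (adjusted p = 0.639 from limma on these arrays alone).

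The genes most like each of the 4 across the 9 arrays were sought among 6883 other named genes at or above the median level. For sas these were GILT1 (Pearson's r = 0.995, Spearman's coefficient 0.95), CG8303 (0.994, 0.924), ko (0.991, 0.941), fj (0.99, 0.924) and Tep3 (0.989, 0.95). Their log2 differences of T10 against T1 were 0.75, 3.10, 2.93, 4.64 and 3.09 in that order, beside 4.31 for sas. All 5 had T1 replicate 3 and T2 replicate 2 above the other early arrays and below T2 replicate 3, as fj shows with 6.43, 4.91 and 8.25 at T1, 5.18, 8.26 and 10.72 at T2, and 11.23, 11.00 and 11.27 at T10. The gene fj encodes the Golgi kinase Four-jointed, which phosphorylates cadherin domains of Fat and Dachsous.

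For Ptp10D the 5 were Rsod (0.995, 0.904, in the same order), CG9427 (0.995, 0.946), in (0.992, 0.945), melt (0.991, 0.895) and kkv (0.99, 0.979). In all 5, the T1 arrays and T2 replicates 1 and 2 lay below T2 replicate 3 and every T10 array. For kkv, the chitin synthase of epidermis and trachea, the arrays read 5.6, 4.89 and 7 at T1, 5.03, 5.62 and 10.79 at T2, and 10.91, 11.27 and 10.51 at T10.

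For btsz (1631518_at) they were kmr (0.991, 1), dlp (0.988, 0.967), aru (0.987, 1), ASPP (0.987, 1) and CG34398 (0.986, 0.917). The glypican gene dlp had log2 values of 9.53, 9.64 and 10.55 at T1, 9.99, 10.61 and 11.41 at T2, and 11.51, 11.77 and 11.48 at T10. Moe had no like genes of that strength, the nearest being CG4911 (0.961, 0.9), CG10126 (0.952, 0.967), Pax (0.933, 0.833), Lectin-galC1 (0.925, 0.75) and neur (0.916, 0.717). Pax encodes the focal adhesion protein Paxillin. These correlations are descriptive: all rest on the same 9 arrays, which lie in an early set and a T10-like set.

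**Figure D4:**
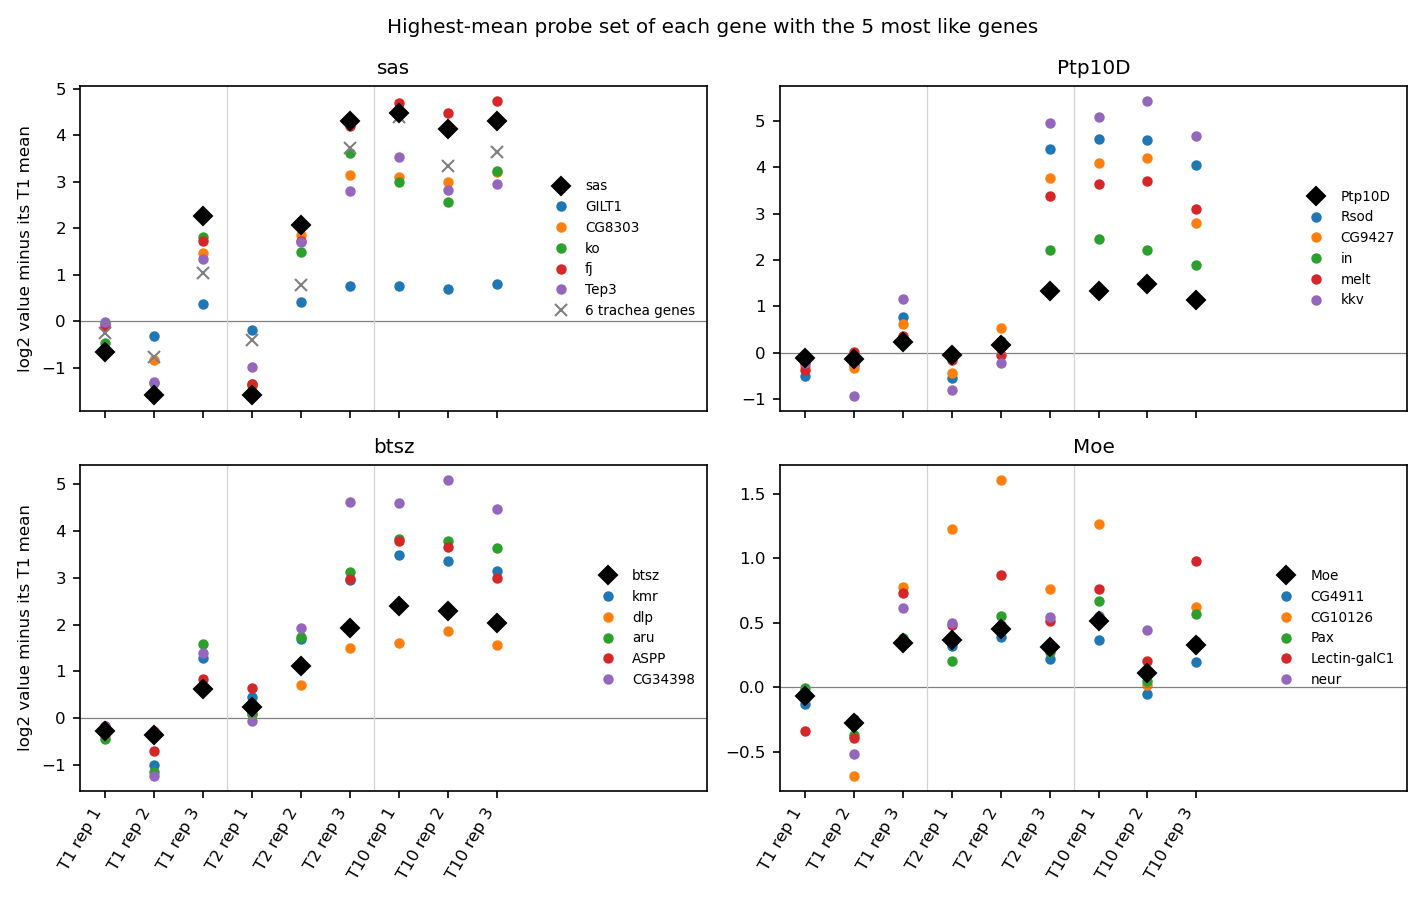
Log2 value minus the gene's own T1 mean (vertical axis) in each of the 9 arrays (horizontal axis, grouped by round) for the highest-mean probe set of each gene (black diamonds) and the 5 genes most like it (colored circles), with grey crosses in the sas panel for the mean of 6 trachea markers. sas and its like genes are raised in T1 replicate 3 and T2 replicate 2, and more so in T2 replicate 3 and T10. Ptp10D and its like genes step up at T2 replicate 3 and T10, with T1 replicate 3 the highest of the other early arrays.

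Markers of the trachea moved with sas and Ptp10D. Of 6 measured tracheal genes, the T10 arrays of verm, serp, Gasp, uif and pio lay above all T1 arrays (log2 differences of 5.38, 4.98, 3.88, 5.36 and 4.64), and those of btl, the FGF receptor of tracheal cells, lay below them (-1.51). Over all probe sets, 12.9% lay above and 15.1% below in that way. Between T10 and T2 the arrays of all 6 tracheal genes overlapped, with a median log2 difference of 3.10. Without T2 replicate 3, limma called 4 of the 6 higher at T10 and 0 lower at an adjusted p under 0.05 (3.15% and 4.32% of all probe sets). The gene verm was also picked by the study on these arrays. Their mean log2 value was 6.75, 6.24 and 8.06 in the T1 arrays, 6.62, 7.79 and 10.74 in the T2 arrays, and 11.4, 10.4 and 10.7 in the T10 arrays. As for sas, T1 replicate 3 and T2 replicate 2 were the highest of the early arrays after T2 replicate 3. The tumors were taken as whole pieces, so more tracheal cells and more RNA per tumor cell cannot be told apart in them, and the part of tracheal tissue in the values of sas and Ptp10D was not tested.

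Muscle markers were also high in the early arrays in which sas was intermediate. The mean over 6 muscle genes, 5 of them below the median probe set mean, was 5.06, 5.06 and 6.86 in the T1 arrays, 5.02, 7.16 and 5.11 in the T2 arrays, and 5.81, 5.16 and 6.05 in the T10 arrays. That over 6 fat body genes was 4.99 to 5.68 at T1, 6.08, 7.66 and 5.47 in the T2 arrays, and 4.91 to 5.26 at T10. T1 replicate 3 and T2 replicate 2 were thus the highest for muscle, and T2 replicate 2 for fat body, whereas the T10 arrays, in which sas was highest, were not.

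The remaining marker lists were compared between T10 and T1. The mean over 10 hemocyte genes, 8 of them below the median probe set mean, was 5.11 to 5.6 in T10 and 4.97 to 5.17 in T1. Over 7 neuron and glia genes it was 7.61 to 7.68 in T10 and 7.75 to 7.86 in T1, and over 5 germline genes 4.68 to 5.16 in T10 and 5.36 to 5.51 in T1. The mean over 4 intestinal progenitor genes was 7.47 to 8.66 in T10 and 10.2 to 10.9 in T1, opposite in direction to sas. Sox21a had a log2 difference of -3.99 (adjusted p = 0.0987 from limma run on T10 and T1 arrays), and Sox100B, with -4.56, passed in that fit (adjusted p = 0.000761) and not on all 9 arrays (0.102). The part of these tissues in the values of the 4 genes was not tested.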

How the data were processed

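RNA of 9 tumor samples was measured on single-color Affymetrix arrays, 3 for each of rounds T1, T2 and T10, as the sample labels give them. From 25 ng of total RNA, cDNA was amplified over 17 cycles and 8 µg was labeled. The authors ran RMA in affy and affyPLM (versions: not given in the sources used here), and the deposited log2 values carry 2 decimals. The log2 values were used as deposited, with array medians of 6.47 to 6.71. Their number limits the precision.

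Of 18952 probe sets, 183 controls were left out. The platform annotation gave 13647 of the rest 1 symbol, 402 several and 4720 none, and symbols were updated through Entrez identifiers to RefSeq (Release 6 plus ISO1 MT, names only). Where a gene has several probe sets, lists use the one with the highest mean. Rounds were compared in R 4.3.3 with limma 3.58.1 (lmFit, eBayes) on all 9 arrays, without covariates. The threshold was a two-sided p under 0.05 after Benjamini-Hochberg adjustment. Differences for the 4 genes were not tested, and their standard errors come from the 3 arrays of each round.

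The genes and lists were chosen with earlier results of these data known. Named were the 4 genes, Ptp4E and Mer, up to 4 genes of a list past the threshold (else the 2 with the smallest p, of which 1 is not reported here), and for each of the 4 genes the 5 with the highest Pearson correlation. Lar, Slik, Esyt2, Exo70, Sec15, Egfr and the marker genes were named beyond this rule, after their values were seen. Alternatives were the rounds in the fit, replicate block, scaling, filter, floor, array weights, threshold, probe set per gene and each array left out. The fit was tested on simulated data in which a probe set had the same spread in every round. That test therefore does not cover a spread that differs between rounds, as it did for sas. Whether arrays of the same replicate number come from the same tumor line is not stated, and the main fit did not pair them.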

Additional observations from a re-analysis of the deposited data

How the results depend on the processing

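The differences of the 4 genes were recomputed under the scalings, the floor, the median in place of the mean, the mean over probe sets and each array left out, and 253 of 258 values moved by less than 1 SD of the arrays. That count is no measure of steadiness. Leaving out 1 of 3 arrays cannot move a round mean by more than 1 SD, and the floor left every value unchanged. With 1 array left out, the log2 difference of sas between T2 and T1 still ran from 0.24 to 3.19. The mean over all 4 btsz probe sets joins its 2 pairs, and gave a log2 difference of 1.40 between T10 and T1 in place of each single value, and 0.41 between T2 and T1. Leaving out 1 array gave 5 to 6 probe sets with T10 above every T1 array, a count added after seeing the data.

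Counts over all probe sets depended on the fit far more. Between T10 and T1, limma on all 9 arrays called 2 probe sets, on the T10 and T1 arrays alone 1122, with the replicate block 5, after quantile normalization 1, with arrays centred on their median 5, with the filter on dim probe sets 1, with array weights 1997 and at an adjusted p under 0.1 817. Leaving out each array gave 1 to 1430, the highest without T2 replicate 3 and the next, 519, without T1 replicate 3. Between T10 and T2 the count was 0, against 5 after quantile normalization, 3 with the floor, 1118 with array weights, 11 at an adjusted p under 0.1 and 0 to 1401 with an array left out, the highest again without T2 replicate 3. At an unadjusted p under 0.05, T10 exceeded T2 at 1586 probe sets and was below it at 1614. Between T2 and T1 it was 1, against 0 with the filter, 5 with array weights, 2 at an adjusted p under 0.1 and 1 to 34 with an array left out, the highest without T1 replicate 3. Among the 70 related genes between T10 and T1 it was 0, against 12 on the arrays of those rounds alone, 14 with array weights, 7 at an adjusted p under 0.1 and 0 to 14 with an array left out (14 without T2 replicate 3, 4 without T1 replicate 3). The cause of these differences was not tested.

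Deviations of arrays from their round means had r of -0.284 to 0.188 over 9 pairs of the same number, against -0.229 to 0.274 over 18 pairs of different numbers. Deviations from means of 3 arrays cannot decide whether a number marks the same tumor line. The replicate block joins arrays by that number. With the block, 5 probe sets passed for T10 against T1, 0 for T10 against T2, 1 for T2 against T1 and 0 of the related genes. With 3 arrays a round, small differences such as that of Moe were not resolved.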
